A study of Homo sapiens with 8 samples.

Results

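The proteasome is the large barrel-shaped protease that degrades most short-lived and damaged proteins of the cell once they carry chains of ubiquitin. Its core particle stacks rings of alpha and beta subunits, with the cutting sites on 3 of the beta subunits, and a regulatory particle on each end recognizes the ubiquitin chain, removes it, unfolds the protein and feeds it into the core. Activators of the PSME family can cap the core in place of the regulatory particle, and chaperones assemble the parts. Liver cells rely on this machinery to clear proteins damaged by oxygen shortage and reoxygenation, and its subunit genes are known to be switched on together by the transcription factor NFE2L1 when proteasome activity is short.

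Proteasome genes were taken as the rows of the count table whose symbol is PSMA, PSMB, PSMC, PSMD, PSME or PSMG followed by a number, with 10 counts or more in at least 4 libraries. This rule kept 44 of the 46 such symbols in the table, out of 12928 tested genes. They form a core class of 16 genes, a regulatory class of 20, an activator class of 4 and an assembly class of 4. PSMB9, with 5 to 14 counts per library, and PSMB11, with 0 to 2, stayed below the filter, and PSMA8, listed only in the FPKM table, was at 0 in all 8 libraries. PSMB8 passed with only 0 to 33 counts, while every other tested member had at least 106 counts in each library.

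RNA-seq was performed on HuH7 cells, a wild-type human hepatoma line used in place of hepatocytes. All 8 samples were held in glucose-free DMEM at 1% oxygen for 6 h and then returned to normoxia for 6 h, the in vitro model of ischemia and reperfusion (OGD/R). During reoxygenation 4 of them were given DMSO, the solvent (I/R+DMSO), and 4 were given ginsenoside Rk2, a ginseng saponin, at 20 µM (I/R+Rk2). The comparison therefore asks what Rk2 changes after OGD/R, and cells kept out of OGD/R were not analysed here. The labels do not say whether the 4 samples of a group came from separate cultures, so p-values measure the spread between these samples, which may be technical. The RNA was bulk, so a change in the share of some cells and a change of RNA within each cell cannot be told apart. The line is a tumour line, a limit on its use as a model of hepatocytes.

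Library totals ranged from 16374082 to 30310479 counts, and proteasome genes took 0.935 to 1.09% of them. All 8 hepatocyte markers examined were tested, with AFP, the fetal albumin that hepatomas make, at a mean of 5931 CPM and ALB at 2285 CPM in I/R+DMSO. The summed level of the 8 markers was 11433 to 12516 CPM with DMSO and 12253 to 12628 CPM with Rk2. Among them APOB, the scaffold protein of lipoproteins, rose by 0.61 on the log2 scale (edgeR adjusted p = 0.0124) and FGB, a fibrinogen chain, had a log2 fold change of -0.27 (edgeR adjusted p = 0.0462). CD14, a monocyte marker with 5 to 24 counts, had one of -1.25 (edgeR adjusted p = 0.0430). With the gene length correction described below, APOB was at 0.29 (edgeR adjusted p = 0.0120), FGB at -0.23 (edgeR adjusted p = 0.0677) and CD14 at -1.23 (edgeR adjusted p = 0.0485). Whether any of these genes bears on the members was not tested. Of the markers of other cell types, CD3E of T cells had 0 to 4 counts. PTPRC, MS4A1, VWF, CDH5, KDR and DCN had no row in the count table. LYZ, a myeloid gene, was nevertheless at 646 CPM with DMSO and 607 CPM with Rk2. The summed level of the leukocyte list was 666 to 730 and 633 to 724 CPM, that of the endothelial list, PECAM1 alone, 8.33 to 10.0 and 9.01 to 10.8 CPM, and that of the stellate list 19.2 to 22.4 and 18.5 to 21.6 CPM. Levels below are normalized CPM, the counts of a gene scaled to library size, in the order of replicates 1 to 4, with DMSO standing for I/R+DMSO and Rk2 for I/R+Rk2, and a fold change is always I/R+Rk2 over I/R+DMSO.

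I/R+DMSO replicate 1 stood apart from the other libraries of its group. Among 43 members (all but PSMB8), 39 lay above their mean over the 8 libraries there, with a median of 0.22 on the log2 scale. The medians of the other 3 I/R+DMSO libraries were 0.04, 0.04 and 0.01, and those of the I/R+Rk2 libraries were -0.05, -0.07, -0.09 and -0.10. All 4 I/R+DMSO medians were therefore above all 4 I/R+Rk2 medians, also with replicate 1 set aside. PSME3 went the other way and was lowest in I/R+DMSO replicate 1.

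**Figure D1:**
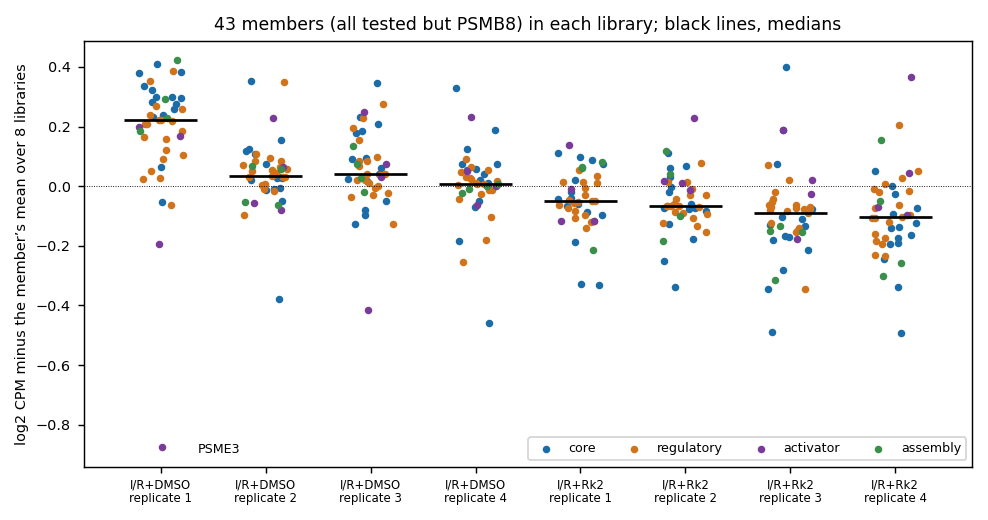
Each point is a proteasome gene in a library, as its log2 CPM minus its mean log2 CPM over the 8 libraries, coloured by class, and black lines are medians over 43 members. The members sit highest in I/R+DMSO replicate 1 (median 0.22) and lowest in I/R+Rk2 replicate 4 (median -0.10), with PSME3 far below the rest in I/R+DMSO replicate 1.

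Across the complex, transcripts were slightly lower with Rk2. The summed level of the 44 genes was 10433 ± 469 CPM with DMSO and 9409 ± 171 CPM with Rk2 (SD, n = 4 each), a difference of -9.82%. Without I/R+DMSO replicate 1 the difference was -7.77%. By library the sums were 11128, 10133, 10297 and 10173 CPM with DMSO and 9554, 9559, 9255 and 9267 CPM with Rk2, which did not overlap. The log2 fold change was negative in 41 members, with a median of -0.15, where the median over all tested genes was -0.00211 and 50.3% of them were negative. Members are short, with a median length of 1510 bases, and genes of about that length were also lower. In bins of all genes by length, those with median lengths of 1447 and 1553 bases had median log2 fold changes of -0.11 and -0.12. With edgeR's quasi-likelihood test and Benjamini-Hochberg adjustment over all tested genes, 8 members fell (adjusted p below 0.05) and none rose. That is 18.2% of the 44, against 7.23% of all tested genes that fell and 11.0% that rose. After a correction for gene length 5 members fell, 11.4% of the 44 against 9.63% of all genes. At an unadjusted p below 0.05 there were 19 members, 18 of them lower and 1, PSME4, higher, against 16.4% and 18.1% of all tested genes. DESeq2 called 16 members lower and 1, PSME4, higher, against 10.0% and 13.0% of all tested genes. No member changed by more than 1.5-fold with an adjusted p below 0.05, as 3.04% of all tested genes did. In 16 members, 36.4%, all 4 I/R+Rk2 libraries were below all 4 I/R+DMSO libraries, against 12.9% of all tested genes, and in no member were they all above, against 15.4%.

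**Figure D2:**
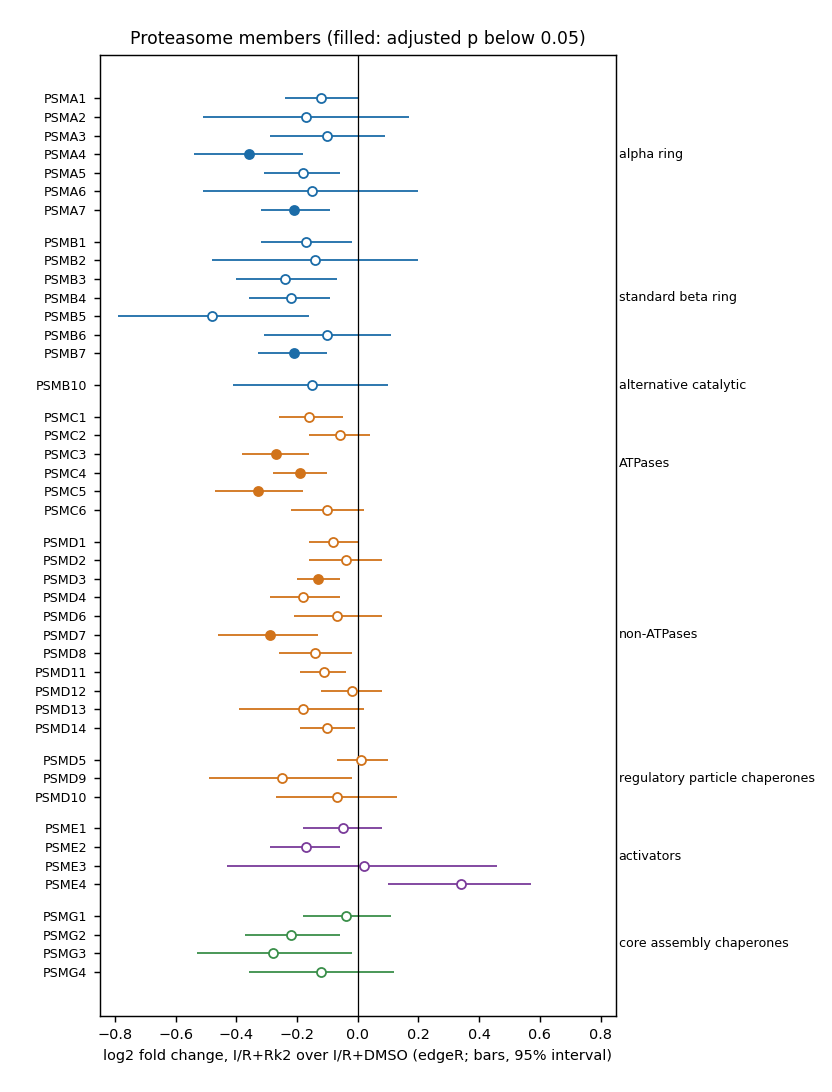
Log2 fold change of 43 proteasome genes (I/R+Rk2 over I/R+DMSO, edgeR) on the horizontal axis, grouped by role, where filled points have an adjusted p below 0.05. Bars are approximate 95% intervals, narrower than the test allows, so a bar that excludes 0 is not a pass of the test. Most points lie left of 0, the 8 filled ones are in the alpha ring, the standard beta ring, the ATPases and the non-ATPases, and PSME4 lies farthest right at 0.34. PSMB8, at -1.25 on very few counts, is left out.

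The alpha subunits form the outer rings of the core, and their tails are the gate that the regulatory particle opens. All 7 had a negative log2 fold change (median -0.17), and 2 of them fell. For members that fell, the position of the gene is that of GENCODE v29 on GRCh38. PSMA4 (chr15:78540405-78552419, plus strand) had 442, 357, 385 and 357 CPM with DMSO and 270, 300, 292 and 339 CPM with Rk2. Every I/R+Rk2 library was below every I/R+DMSO library, and the log2 fold change was -0.36 (standard error 0.0902, edgeR adjusted p = 0.0289). PSMA7 (chr20:62136735-62143440, minus strand), the most abundant alpha subunit transcript at a mean of 415 FPKM, had 521, 440, 460 and 431 CPM with DMSO and 403, 407, 393 and 404 CPM with Rk2. Its groups did not overlap either, although replicate 1 of I/R+DMSO was well above the rest, and the log2 fold change was -0.21 (edgeR adjusted p = 0.0489). The other 5 alpha subunits, PSMA1, PSMA2, PSMA3, PSMA5 and PSMA6, had log2 fold changes from -0.18 to -0.10 without passing the test. For PSMA2 the 212 CPM of I/R+Rk2 replicate 3 stood above the 127 to 141 CPM of the other I/R+Rk2 libraries. AC010132.3, a gene model whose exons overlap those of PSMA2 on the same strand, had 0 counts in that library and 98.7 to 100 CPM in the other I/R+Rk2 libraries. The summed level of the pair was 212 to 277 CPM over the 8 libraries, and how reads were divided between them was not tested.

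The beta rings hold the cutting sites: PSMB5 cuts after bulky hydrophobic residues, PSMB6 after acidic and PSMB7 after basic ones. All 7 standard beta subunits had a negative log2 fold change (median -0.21), and 1, PSMB7, fell. PSMB7 (chr9:124353466-124415444, minus strand) had 498, 424, 434 and 439 CPM with DMSO and 405, 396, 371 and 378 CPM with Rk2, with no overlap. Its log2 fold change was -0.21 (standard error 0.0584, edgeR adjusted p = 0.0401). PSMB5, the target of bortezomib, had the lowest log2 fold change of the ring but also a wide spread. It had 239, 316, 315 and 311 CPM with DMSO and 197, 196, 282 and 176 CPM with Rk2. Replicate 1 of I/R+DMSO was low, replicate 3 of I/R+Rk2 was high, and the groups overlapped. The log2 fold change was -0.48 (standard error 0.159, edgeR adjusted p = 0.0743). PSMB6 had 185, 171, 149 and 150 CPM against 170, 170, 139 and 133 CPM, a log2 fold change of -0.10 (edgeR adjusted p = 0.548) with overlapping groups. Among the non-catalytic beta subunits, PSMB3, the most abundant at a mean of 471 FPKM, had 453, 353, 352 and 358 CPM against 334, 319, 330 and 304 CPM. The groups did not overlap, and the log2 fold change was -0.24 (edgeR adjusted p = 0.0872). PSMB1, PSMB2 and PSMB4 lay between -0.22 and -0.14 without passing the test. PSMB2 was low in 1 library of each group, at 411 CPM in I/R+DMSO replicate 2 and 381 CPM in I/R+Rk2 replicate 3, where the other 6 libraries had 553 to 630 CPM.

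**Figure D3:**
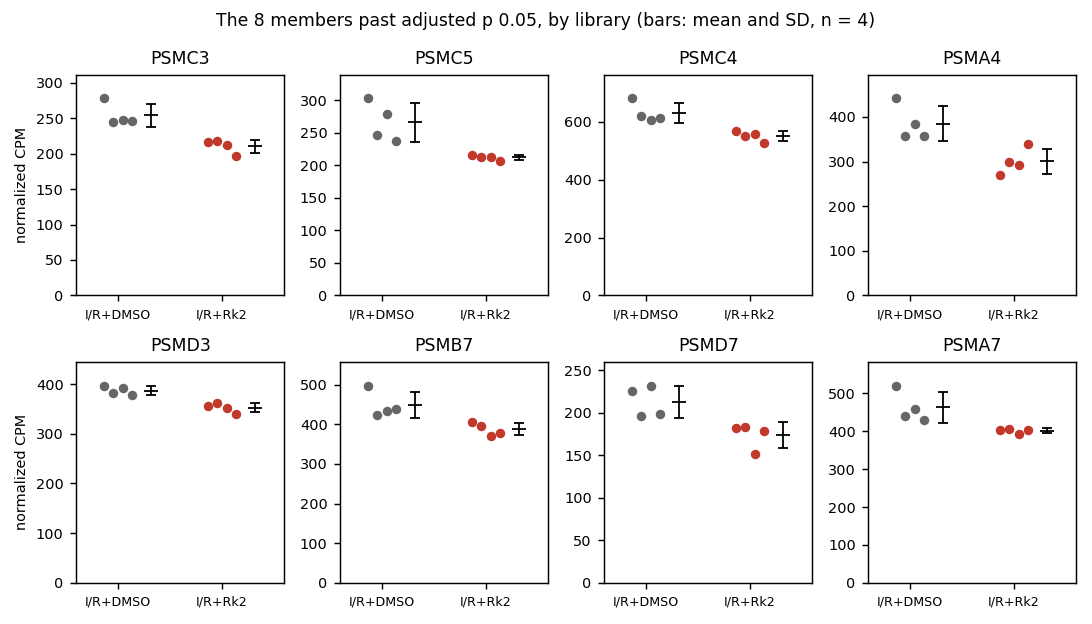
Normalized CPM of the 8 members with an adjusted p below 0.05 in each library (points, replicates 1 to 4 from left to right, axes from 0), with the mean and SD of each group of 4. In every panel the I/R+Rk2 points lie below the I/R+DMSO points, and in every panel but PSMD7 the highest point is I/R+DMSO replicate 1.

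Interferon-gamma induces alternative catalytic subunits, PSMB8, PSMB9 and PSMB10, which replace PSMB5, PSMB6 and PSMB7 in the immunoproteasome and favour peptides suited to antigen presentation. In these cells they were scarce. PSMB5 was at a mean of 242 FPKM in I/R+DMSO, PSMB8 at 0.873 FPKM. PSMB6 was at 194 FPKM and PSMB9 at 0.339 FPKM, and PSMB7 at 390 FPKM and PSMB10 at 9.42 FPKM. PSMB8 amounted to 0.580, 0.404, 0.181 and 0.327% of PSMB5 (FPKM) in I/R+DMSO and to 0.240, 0, 0.278 and 0.209% in I/R+Rk2. These shares overlapped, and they rest on 13 to 33 counts of PSMB8 with DMSO and 0 to 19 with Rk2. With 0.1 FPKM added to both subunits, since a log2 ratio cannot be taken at 0, the log2 difference was -0.97 (two-sided exact permutation p = 0.200, adjusted p = 0.600 over 3 ratios). The 0 of I/R+Rk2 replicate 2 allows up to 3 counts, 0.16 CPM of that library, for counting error only. PSMB8 itself had a log2 fold change of -1.25 with a standard error of 0.677 (edgeR adjusted p = 0.233), so that a difference was not detectable at this depth. PSMB9 was 0.0398 to 0.352% of PSMB6 with DMSO and 0.0782 to 0.172% with Rk2, where the log2 difference was -0.13 (exact permutation p = 0.857, adjusted p = 0.857). PSMB10 was 2.14 to 2.67% of PSMB7 with DMSO and 2.03 to 2.71% with Rk2, and the log2 difference was -0.04 (exact permutation p = 0.800, adjusted p = 0.857). The smallest p that 4 libraries against 4 allow is 0.0286. As a gene, PSMB10 had 12.1, 9.36, 11.2 and 8.53 CPM against 10.2, 9.90, 7.98 and 8.89 CPM (log2 fold change -0.15, edgeR adjusted p = 0.450), and AC040162.1 shares 34.8% of its exon bases on the same strand.

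**Figure D4:**
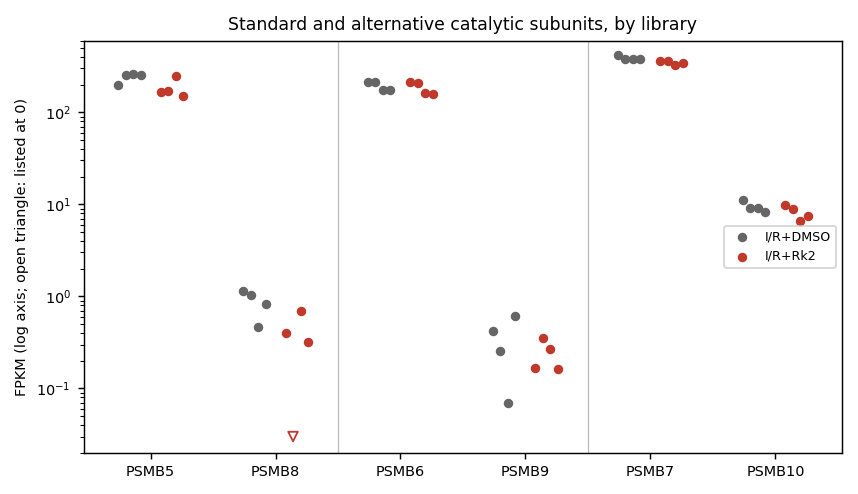
FPKM of the catalytic subunits in each library on a log axis, each standard subunit beside its interferon-inducible counterpart (grey, I/R+DMSO; red, I/R+Rk2; open triangle, listed at 0). PSMB8 and PSMB9 lie at or below 1.15 FPKM and PSMB10 between 6.62 and 11.2 FPKM, while PSMB5, PSMB6 and PSMB7 lie at 152 FPKM or higher, and the groups overlap for every subunit shown except PSMB7.

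The regulatory particle has a base with a ring of 6 ATPases, PSMC1 to PSMC6, which unfold the substrate and open the gate, and a lid of non-ATPase subunits. The ATPases held 3 of the 8 members that fell. PSMC3 (chr11:47418769-47426473, minus strand) had 278, 245, 247 and 246 CPM with DMSO and 216, 217, 212 and 197 CPM with Rk2. The groups lay clearly apart, and the log2 fold change was -0.27 (standard error 0.0539, edgeR adjusted p = 0.0127), the lowest adjusted p of all members. PSMC5 (chr17:63827152-63832026, plus strand) had 303, 246, 278 and 238 CPM with DMSO and 215, 213, 213 and 207 CPM with Rk2. The I/R+Rk2 libraries were nearly equal and all below I/R+DMSO, a log2 fold change of -0.33 (standard error 0.0743, edgeR adjusted p = 0.0201). FTSJ3, on the opposite strand, covers 19.5% of the PSMC5 exon bases, and the sources used here do not say whether counting used strand. PSMC4 (chr19:39971005-39981441, plus strand), the most abundant ATPase transcript at a mean of 340 FPKM, had 682, 620, 607 and 612 CPM against 570, 553, 559 and 528 CPM, a log2 fold change of -0.19 (edgeR adjusted p = 0.0286). PSMC1, with 75.8% of its exon bases under NRDE2 on the opposite strand, PSMC2 and PSMC6 had log2 fold changes from -0.16 to -0.06 and did not pass the test. In PSMC1 the groups did not overlap.

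Of the 11 non-ATPase subunits, all had a negative log2 fold change (median -0.11), and 2 fell. PSMD3 (chr17:39980797-39997960, plus strand), a scaffold subunit of the lid, had 397, 382, 391 and 377 CPM with DMSO and 356, 362, 352 and 340 CPM with Rk2. The change was small, but the spread within each group was smaller, and the log2 fold change of -0.13 had a standard error of 0.0349 (edgeR adjusted p = 0.0343). PSMD7 (chr16:74296775-74306288, plus strand), the structural partner of the deubiquitinase PSMD14, had 226, 196, 232 and 198 CPM against 182, 183, 151 and 178 CPM. Its groups did not overlap, with a log2 fold change of -0.29 (standard error 0.0823, edgeR adjusted p = 0.0423), and AC009120.2 covers 30.7% of its exon bases on the opposite strand. PSMD8, a lid subunit and the most abundant non-ATPase at a mean of 246 FPKM, had 464, 403, 412 and 408 CPM against 405, 393, 381 and 353 CPM. Its groups overlapped and the log2 fold change was -0.14 (edgeR adjusted p = 0.145). Of the remaining 8, PSMD4, the ubiquitin receptor, and PSMD11, a lid subunit, had groups that did not overlap, with log2 fold changes of -0.18 (edgeR adjusted p = 0.0729) and -0.11 (edgeR adjusted p = 0.0791). PSMD1 and PSMD2, the large scaffolds of the base, were at -0.08 and -0.04, PSMD14 at -0.10, and PSMD6, PSMD12 and PSMD13 between -0.18 and -0.02, none past the test.

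PSMD5, PSMD9 and PSMD10 are chaperones that pair the ATPases during assembly and leave the finished particle, and none passed the test. PSMD9 had 30.1, 33.7, 30.3 and 22.2 CPM against 24.6, 25.4, 25.2 and 22.5 CPM (log2 fold change -0.25, edgeR adjusted p = 0.180). PSMD5, the most abundant at a mean of 31.0 FPKM, had 107, 117, 109 and 112 CPM against 116, 113, 107 and 114 CPM (log2 fold change 0.01, edgeR adjusted p = 0.846). PSMD10, known as the oncoprotein gankyrin in liver cancer, had a log2 fold change of -0.07. All 3 had overlapping groups.

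The chaperones of the core did not pass the test either. PSMG1 and PSMG2 act as a pair that builds the alpha ring, and so do PSMG3 and PSMG4. PSMG1 had 76.5, 64.3, 66.3 and 66.2 CPM against 71.2, 69.1, 60.5 and 65.0 CPM, a log2 fold change of -0.04 (edgeR adjusted p = 0.750). PSMG2 had 80.1, 71.6, 75.0 and 68.7 CPM against 71.5, 63.8, 61.5 and 57.2 CPM, a log2 fold change of -0.22 (edgeR adjusted p = 0.0876). In both genes the libraries of the groups overlapped, in PSMG2 only through I/R+Rk2 replicate 1. PSMG3 had 56.3, 43.7, 44.2 and 42.0 CPM against 36.2, 37.0, 33.8 and 46.8 CPM, a log2 fold change of -0.28 (edgeR adjusted p = 0.169). PSMG4 had 8.60, 6.78, 7.16 and 6.98 CPM against 7.33, 7.62, 6.41 and 5.71 CPM, a log2 fold change of -0.12 (edgeR adjusted p = 0.522). The summed level of the 4 was 196 ± 17.3 CPM with DMSO and 175 ± 9.93 CPM with Rk2 (SD, n = 4 each).

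The activators open the core without ATP or ubiquitin. As a class they had a median log2 fold change of -0.02, where the core had -0.18, the regulatory class -0.12 and the assembly class -0.17. The summed level differed by -13.8% in the core, -9.03% in the regulatory class and 7.48% in the activators. Without I/R+DMSO replicate 1, where PSME3 was low, the activator sums were 827 CPM with DMSO and 830 CPM with Rk2, a difference of 0.392%. Without that library the core differed by -10.3%, the regulatory class by -7.01% and the assembly class by -6.63%. PSME1 and PSME2 together form an interferon-inducible cap. PSME1 had 72.9, 61.3, 68.3 and 62.0 CPM against 64.4, 64.2, 65.8 and 60.6 CPM (log2 fold change -0.05, edgeR adjusted p = 0.617). PSME2 had 93.7, 85.4, 83.4 and 84.5 CPM against 75.3, 82.6, 72.2 and 77.7 CPM, without overlap (log2 fold change -0.17, edgeR adjusted p = 0.0724). PSME3, which caps nuclear proteasomes, had 197 CPM in I/R+DMSO replicate 1 and 423, 429 and 424 CPM in the other I/R+DMSO libraries, against 398, 364, 355 and 373 CPM. With all libraries its log2 fold change was 0.02 (edgeR adjusted p = 0.973), and without I/R+DMSO replicate 1 it was -0.19 (edgeR adjusted p = 0.0234), so this 1 library set both its sign and its call. PSME4, a large nuclear activator linked to histone degradation, had 245, 269, 210 and 280 CPM against 258, 328, 319 and 361 CPM. It had the highest log2 fold change of all members, 0.34 (standard error 0.120, edgeR adjusted p = 0.0884), with overlapping groups and no pass of the test. PSME4 is also the longest of the members with a length, at 7299 bases, and its log2 fold change was 0.14 with the gene length correction (edgeR adjusted p = 0.414) and 0.18 with GENCODE lengths (edgeR adjusted p = 0.284). It passed without I/R+Rk2 replicate 1. No test compared the classes with each other.

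Gene length moved with these results. Over the 12912 tested genes with a known length, longer genes had higher log2 fold changes (Spearman's rho = 0.388), as a description across genes that share the same 8 libraries. Over the 44 members rho was 0.417, and without PSME4, the longest, 0.375. Proteasome transcripts are short, with a median length of 1510 bases against 2913 for all tested genes, and 38 of the 44 were below that median. The lengths were derived from the ratio of counts to FPKM, and in 14 members they differed by at least 1.2 times between libraries. With a gene length correction per library the median log2 fold change of the members was -0.07, against -0.0217 for all genes, and 36 members were negative, against 53.8% of all genes. Over the 44 members rho was then -0.253, so among them longer genes tended to be lower after the correction. With the correction 5 members passed the test, 11.4% of the 44 against 9.63% of all genes that fell. These were PSMC3 at -0.19 (edgeR adjusted p = 0.006), PSMC4 at -0.12 (edgeR adjusted p = 0.0204), PSMC5 at -0.21 (edgeR adjusted p = 0.0182), PSMD3 at -0.13 (edgeR adjusted p = 0.0159) and PSMD11 at -0.23 (edgeR adjusted p = 0.00719). PSMD11, with a length of 4671 bases, had not passed without the correction (-0.11, edgeR adjusted p = 0.0791). All 5 belong to the regulatory class, which holds 20 of the 44 members, and whether the classes differ was not tested. PSMA4, PSMA7, PSMB7 and PSMD7 were no longer past the test. Of these, PSMD7 was at -0.23 (edgeR adjusted p = 0.0729) and PSMA4 at -0.19 (edgeR adjusted p = 0.152), while PSMA7 was at -0.06 (edgeR adjusted p = 0.212) and PSMB7 at -0.08 (edgeR adjusted p = 0.0911). The median of the core went from -0.18 to -0.07, that of the regulatory class from -0.12 to -0.07, that of the assembly class from -0.17 to -0.06 and that of the activators from -0.02 to 0.05. With exon lengths from GENCODE v29 instead, a correction chosen after seeing the data, the median of the members was -0.14 against -0.0296 for all genes, 38 members were negative, against 55.2% of all genes, and 7 members passed, 15.9% against 9.38% of all genes. They were PSMA4, PSMC1, PSMC3, PSMC4, PSMC5, PSMD3 and PSMD11. The GENCODE lengths join all annotated exons of a gene and were longer for the members than those from counts and FPKM. PSMA4 had 6996 against 906 bases and PSMC5 4490 against 1264, while PSMC3 differed less, with 2276 against 1649. PSMA4, at -0.45 with GENCODE lengths, was thus corrected as a long gene. How far the members differed from other genes of their length therefore depended on which length was used, while PSMC3, PSMC4, PSMC5 and PSMD3 fell with either and with none.

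**Figure D5:**
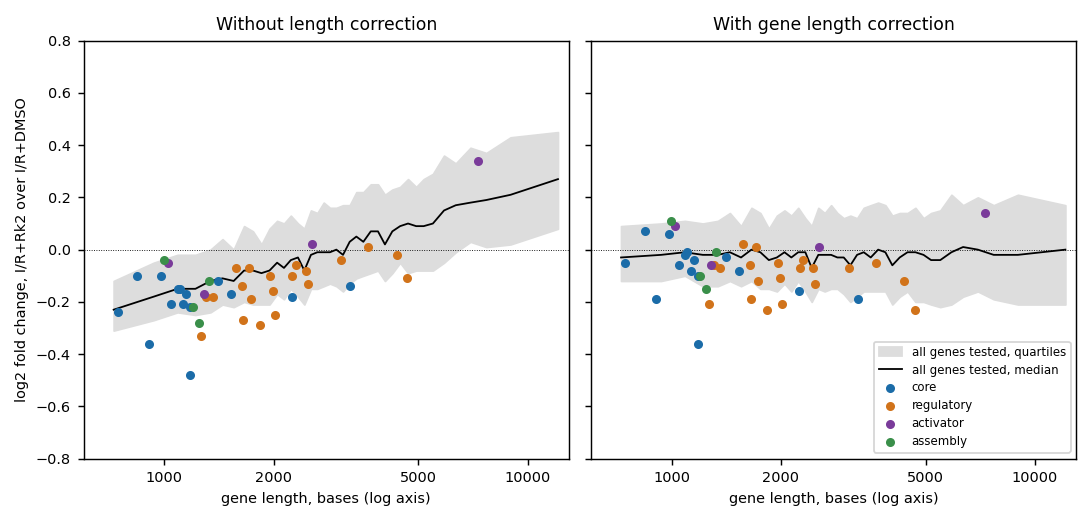
Log2 fold change (I/R+Rk2 over I/R+DMSO) against gene length in bases on a log axis, before and after the gene length correction, for 43 members (points by class, PSMB8 left out) over the median and quartiles of 40 bins of all genes by length. Before correction the median of all genes climbs from -0.23 in the shortest bin to 0.27 in the longest, and most members lie along it at the short end. Afterwards that median is nearly flat, and the core and the regulatory members lie mostly below it.

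Most of the 8 calls were lost in some fits with 1 library left out, while the log2 fold change kept its sign in every such fit. With each library left out in turn, 1 to 12 of the 44 members fell, against 3.35 to 6.90% of all tested genes. The most fell without I/R+DMSO replicate 1 and the fewest without I/R+Rk2 replicate 2. Without I/R+DMSO replicate 3 the members that fell were PSMC3 and PSMC4, against 4.45% of all tested genes. Without I/R+Rk2 replicate 1 they were PSMC3, PSMC4, PSMC5 and PSMG2, against 4.87%. Without I/R+Rk2 replicate 3 they were PSMB5, PSMC3 and PSMC5, against 4.15%, and without I/R+Rk2 replicate 4 PSMA4 and PSMC3, against 3.35%. Without I/R+Rk2 replicate 2 PSMC3 alone fell, a lower share of the members than the 4.01% of all tested genes. PSMC3 fell in all 8 of these fits, PSMC5 in 5, PSMC4 and PSMA4 in 4, and PSMA7, PSMB7, PSMD3 and PSMD7 in 2 each. Over these fits the log2 fold change lay between -0.29 and -0.22 for PSMC3, -0.38 and -0.26 for PSMC5, -0.21 and -0.15 for PSMC4, and -0.42 and -0.29 for PSMA4. It lay between -0.24 and -0.14 for PSMA7, -0.24 and -0.16 for PSMB7, -0.15 and -0.12 for PSMD3, and -0.33 and -0.23 for PSMD7. Where one of these members other than PSMA7 did not pass, its edgeR adjusted p was between 0.0505 and 0.0963. Without I/R+DMSO replicate 1, the library in which members were highest, the median over the members was -0.10. There 12 members fell, against 6.90% of all tested genes, among them PSMA5, PSMB3, PSMB4, PSMD4 and PSME3 in addition to 7 of the 8.

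Promoter sequence bears on the members because the response element of NFE2L1 and its relative NFE2L2 has the core TGACNNNGC, read on either strand, and many proteasome promoters also carry a CCAAT box. In RefSeq windows of 300 bases around gene starts (GRCh38.p14), 38 of the 44 members had a window. TGACNNNGC was present in 14 of their 46 windows, 30.4%, against 13.3% of 35116 windows of all genes, and CCAAT in 18, 39.1%, against 34.6%, as a description with no test. The members that matched TGACNNNGC and those that did not had nearly the same median log2 fold change, -0.15 for 14 members and -0.14 for 24. Among the 6 members that fell and had a window, 4 matched TGACNNNGC. For each of these, the match that has 10 bases of the window on both sides is shown to compare the bases between the fixed letters, in the direction in which the element reads, with the element in capitals and 10 bases on each side.
PSMA4, chr15:78540650-78540678, same strand as the gene: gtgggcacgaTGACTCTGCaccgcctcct
PSMC4, chr19:39971182-39971210, opposite strand: tcctccatagTGACCAAGCcggcctctgt
PSMC5, chr17:63827654-63827682, opposite strand: agggcggcgcTGACACAGCagatccggtc
PSMD3, chr17:39980760-39980788, same strand as the gene: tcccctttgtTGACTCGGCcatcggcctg
All 4 genes are on the plus strand of GRCh38.p14. The match shown for PSMD3 begins 37 bases and that of PSMA4 126 bases upstream of a gene start, that of PSMC5 57 bases upstream, and that of PSMC4 27 bases downstream. These distances are from the RefSeq gene start of each window. Against the GENCODE gene starts given above, the matches of PSMA4 and PSMC5 lie downstream. PSMD3 holds another match, which begins 33 bases downstream of the gene start, too near the end of the window to be shown with its flanks. A match is a description of the letters and was not tested as a site.

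For the members that fell with and without either length correction, the upstream stretch outside annotated exons is shown where it spans most of the window, with matches to the pair of motifs in capitals. PSMC3 has no TGACNNNGC match, and its capitals mark a CCAAT box that begins 114 bases upstream of the gene start. In PSMD3 the capitals mark, from left to right, a CCAAT box on the opposite strand, which begins 217 bases upstream, and the TGACNNNGC match above.
PSMC3, chr11:47426474-47426689, minus strand, GRCh38.p14: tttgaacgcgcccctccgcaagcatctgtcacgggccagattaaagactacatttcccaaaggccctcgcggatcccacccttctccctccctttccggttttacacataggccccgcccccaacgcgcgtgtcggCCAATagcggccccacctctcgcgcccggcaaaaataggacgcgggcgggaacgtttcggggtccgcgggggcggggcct
PSMD3, chr17:39980557-39980796, plus strand, GRCh38.p14: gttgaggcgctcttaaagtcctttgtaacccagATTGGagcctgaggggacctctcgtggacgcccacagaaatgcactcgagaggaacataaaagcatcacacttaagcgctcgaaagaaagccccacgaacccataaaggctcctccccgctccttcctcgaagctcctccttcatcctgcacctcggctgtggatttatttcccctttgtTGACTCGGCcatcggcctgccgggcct

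Partners of the proteasome were examined as 4 lists with 40 tested genes in all, of which 1 fell and 6 rose, against 7.23% and 11.0% of all tested genes. Among 11 associated proteins, ADRM1, a ubiquitin receptor of the regulatory particle, was at 404 ± 36.7 CPM with DMSO and fell to 334 ± 13.0 CPM with Rk2 (SD, n = 4 each, log2 fold change -0.27, edgeR adjusted p = 0.0254). KIAA0368, a scaffold that binds the regulatory particle, rose by 0.26 on the log2 scale (edgeR adjusted p = 0.0219). POMP, which matures the core, was at -0.23 (edgeR adjusted p = 0.108), and PSMF1, an inhibitor of the core, at -0.09 (edgeR adjusted p = 0.570). None of the other 7 passed the test.

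In the list of 10 genes around NFE2L1, the factor itself did not pass the test. NFE2L1 had 248 to 305 CPM with DMSO and 239 to 301 CPM with Rk2 (log2 fold change -0.04, edgeR adjusted p = 0.809), and NFE2L2 was at 0.14 (edgeR adjusted p = 0.671). Its DNA-binding partners MAFG and MAFK rose, MAFG from 61.2 ± 3.19 to 86.0 ± 1.96 CPM (SD, n = 4 each, log2 fold change 0.49, edgeR adjusted p = 8.17e-04) and MAFK by 0.22 on the log2 scale (edgeR adjusted p = 0.0370). SEL1L, an adaptor of the ubiquitin ligase that turns NFE2L1 over at the endoplasmic reticulum, rose from 73.9 ± 3.87 to 106 ± 4.03 CPM (SD, n = 4 each, log2 fold change 0.53, edgeR adjusted p = 7.71e-04). MAFG and SEL1L stayed past the test after the gene length correction, both at 0.33, while MAFK did not.

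Of 11 genes of ubiquitin supply and delivery, 1 rose: UBA6, an enzyme that activates ubiquitin, at a log2 fold change of 0.43 (edgeR adjusted p = 0.0108). Of 8 tested genes of antigen processing, 1 rose: ERAP1, which trims peptides for antigen presentation, at 0.34 (edgeR adjusted p = 0.00808). After the gene length correction the 4 lists held 3 genes that fell, ADRM1, VCP (the segregase that pulls proteins out of membranes, -0.18) and UBA1 (the main ubiquitin-activating enzyme, -0.15), and 3 that rose, MAFG, SEL1L and ERAP1. Under that correction 9.63% of all genes fell and 7.95% rose.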

How the data were processed

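The authors made MGIEasy libraries from total RNA of HuH7 cells. The submitters' processing notes name FastQC 0.11.5, HISAT2 2.2.1, StringTie 1.3.3 and hg38, without roles. The read counter, its strand setting and the annotation are not given in the sources used here. The authors deposited raw counts, whole numbers for each gene, and FPKM, which are scaled to length and depth.

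Counts were tested with edgeR 4.0.16 in R 4.3.3 (TMM normalization, robust quasi-likelihood test, treatment as the only term, Benjamini-Hochberg adjustment over 12928 genes that reached 10 counts in 4 or more libraries). CPM are TMM-normalized, and levels of different genes were compared in FPKM. Ratios were tested on log2 FPKM (PSMB8, with a 0, after adding 0.1 FPKM) with a two-sided exact permutation test in scipy 1.17.1. Alternatives used DESeq2 1.42.0, limma 3.58.1, other normalizations and filters, gene length corrections (loess, span 0.5) and leaving out libraries. The steps were tested on simulated data. Exons came from GENCODE 29 and promoters from RefSeq. Standard errors were taken as the size of the edgeR log2 fold change over the square root of its test statistic. The 95% intervals of fold changes use these with a normal quantile and cover the spread between libraries. They are narrower than the test allows, so some exclude 0 without passing it. PSMB1, for example, had -0.32 to -0.02 with an unadjusted edgeR p of 0.0523. The floor of a count of 0 covers counting error only.

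The members and gene lists were chosen with earlier results of these data known. Library totals of 16374082 counts or more gave at least 106 counts to every tested member but PSMB8. Values per library are given for members with an adjusted p below 0.05, the catalytic subunits that were tested, the activators, the core chaperones, and, in each class, the member with the largest change and the one with the highest FPKM. Other members are given by range. Context genes are named if past the test, besides NFE2L1, NFE2L2, POMP and PSMF1. Same-numbered libraries of the groups did not deviate together (correlations of 0.016, -0.00945, 0.0381 and 0.0845), so no pairing was used. These correlations cannot show whether such libraries were prepared together.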

Additional observations from a re-analysis of the deposited data

Results flagged for a closer look

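Of 88 member and group combinations examined, 17 held a library that lay far from the other 3 of its group (its gap over the group's range was above Dixon's critical value), where chance gives about 4.40. The members share the same libraries, so these combinations are not independent of each other. I/R+DMSO replicate 1 was the library far from the others in 13. It was high, in CPM, for PSMA3 (162), PSMA5 (273), PSMB1 (357), PSMB3 (453), PSMC1 (154), PSMC2 (363), PSMC3 (278), PSMD8 (464), PSMD13 (152), PSMG1 (76.5) and PSMG3 (56.3). It was low for PSMB5 (239) and PSME3 (197), and PSME3 was there 1.11 below the mean of the other 3 on the log2 scale. What set this library apart was not tested here.

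PSMB2 was low in I/R+DMSO replicate 2 (411 CPM against 609 to 630) and in I/R+Rk2 replicate 3 (381 CPM against 553 to 568). PSMA2 was high in I/R+Rk2 replicate 3 (212 CPM against 127 to 141), the library in which the overlapping AC010132.3 had 0 counts. PSMD10 was high in I/R+Rk2 replicate 4 (37.9 CPM against 29.7 to 31.0).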

How the results depend on the processing

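Members that fell, 8 as reported, were 16 with DESeq2 (and 1 that rose), 13 with upper-quartile normalization, 5 with either gene length correction plus the replicate block, 5 with the gene length correction, 4 with library size only, 5 with the replicate block and 2 with each of 3 limma fits on FPKM. PSMC3 and PSMC5 fell under all 14 alternatives that kept every library. The share of all genes that fell was 10.0% with DESeq2, 10.1% with upper-quartile normalization, 9.63% with the gene length correction, 6.32% and 6.24% with the length and GENCODE corrections plus block, 5.29% with library size only, 5.20% with the replicate block and 1.67 to 2.60% under limma. Without 1 library the count was 1 to 12, with 0 to 1 that rose. All genes called numbered 2351, and 1515 and 1558 with the length and GENCODE corrections plus block, 1121, 1106 and 971 with limma on log2(FPKM + 1), on log2(FPKM + 0.1) and without a filter, and 1291 to 2282 without 1 library. Context genes that fell were 3 under all length corrections, with and without the block, 0 under limma on FPKM and 0 to 1 without 1 library. Those that rose were 3 under limma on FPKM, the gene length correction, with or without block, and the GENCODE correction with block, and 5 to 6 without 1 library.

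The median of the members and that of the core were both -0.07 with the gene length correction, with or without block. Without 1 library they were -0.18 to -0.10 and -0.23 to -0.12. The activator median was 0.02 with the GENCODE correction and 0.05 with block, 0.05 and 0.09 with the gene length correction, 0.01 with library size only and with the replicate block, -0.09 under limma on FPKM, -0.05 under voom, and -0.07 to 0.03 without 1 library. The PSMB8 to PSMB5 difference was -0.97 and lay between -1.24 and -0.38 without 1 library. The PSMB10 to PSMB7 difference was 0.06 by CPM per kilobase (exact permutation p = 0.571) and -0.11 to 0.03 without 1 library, and that of PSMB9 to PSMB6 -0.71 to 0.34.

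Members that changed sign did so without passing the test, except PSME3 without I/R+DMSO replicate 1 (-0.19, edgeR adjusted p = 0.0234). With the gene length correction these were PSMA3 (0.06), PSMB6 (0.07, with block 0.06), PSMD5 (-0.05), PSMD6 (0.01), PSMD10 (0.02, with block 0.01), PSME1 (0.09) and PSMG1 (0.11), and PSMA6 with block (0.00). With the GENCODE correction they were PSMB6 (0.03, with block 0.02), PSMD10 (0.01), PSME1 (0.06), PSMG1 (0.04) and, without block, PSME3 (-0.02). PSMD12 was at 0.01 with library size only and voom. PSME3 was at -0.18 under limma on FPKM, -0.01 with upper-quartile normalization and -0.10 under voom. PSMD5 was at -0.01 with upper-quartile normalization and -0.00 under voom, and PSMG1 at 0.01 under voom. Without 1 library, PSMA3 lay between -0.14 and 0.01, PSMD5 between -0.00 and 0.04, PSMD12 between -0.06 and 0.02, PSME3 between -0.19 and 0.10 and PSMG1 between -0.08 and 0.02. The causes were not tested. The labels do not say whether equal replicate numbers mark paired libraries, and the replicate block moved calls as given. Depth limited PSMB8, PSMB9 and PSMB11.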
